A study of Mus musculus with 36 samples.

Results

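This account concerns what still set pressure-loaded hearts apart from unloaded hearts after MitoQ, within mice that carry the cSirt4-Tg label. It covers 12 of the 36 RNA-seq libraries of the series, 6 from cSirt4-Tg hearts after TAC with MitoQ (Tg-TAC-MitoQ) and 6 from cSirt4-Tg hearts after sham surgery with vehicle (Tg-Sham). They were chosen by their genotype, surgery and treatment labels and by no measured value, and each library is 1 whole heart from 1 mouse. The 6 cSirt4-Tg hearts after TAC with vehicle (Tg-TAC) are set beside them, and so are the 6 Control hearts after TAC with MitoQ (Con-TAC-MitoQ) and the 6 Control hearts after sham surgery with vehicle (Con-Sham). There was no MitoQ group without TAC, and each cSirt4-Tg group carries the transgene. The sources used here give no promoter for the transgene, no age, no interval after surgery, and no dose or duration of MitoQ. In the 12 libraries Ddx3y, a Y-linked gene, was at 2088 normalized counts or more and Xist at 3.90 or less, the pattern of male tissue.

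TAC, a band that narrows the aortic arch, makes the left ventricle pump against a raised pressure. The muscle cells enlarge and take up again genes of the fetal heart, such as Nppa, Acta1 and Myh7, fibroblasts lay down collagens and other matrix, and transcripts for fatty acid oxidation and for repolarising ion channels commonly decline. MitoQ is a ubiquinone joined to a lipophilic cation, which gathers it inside mitochondria, where it acts as an antioxidant. SIRT4 is a sirtuin of the mitochondrial matrix. Background of this kind is given throughout only to say what a gene is known for.

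The genes with the clearest difference did not code for proteins. They included the 7SK RNA, spliceosomal, nucleolar and ribosomal RNAs, a pseudogene and genes with no assigned role. Among them 2 small nuclear RNA genes lie upstream of Sirt4 on chromosome 5, the gene that the label names. Sirt4 is on the minus strand and both RNA genes on the plus strand. In the coordinates of the deposited table (mm39), 4733 bases separate Sirt4 from Gm24265 and 654 bases separate Gm24265 from Gm24407. Their sequences are shown because they are nearly the same RNA, so reads from them may not be assigned to 1 copy with certainty. Another small nuclear RNA gene, Gm22513 on chromosome 12, is shown beside them. The sequences are those of GENCODE vM21 on GRCm38, matched by symbol, at chr5:115489459-115489599, chr5:115490254-115490394 and chr12:54696782-54696945, all on the plus strand. Gm24265 and Gm24407 have 141 bases each and share 139 of them. The capitals mark the 2 that differ, G88A and C99A, counted from 1 at the 5′ end with the base of Gm24265 first.
Gm24265: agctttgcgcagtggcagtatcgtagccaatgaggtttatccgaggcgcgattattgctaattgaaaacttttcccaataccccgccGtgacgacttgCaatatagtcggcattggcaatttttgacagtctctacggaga
Gm24407: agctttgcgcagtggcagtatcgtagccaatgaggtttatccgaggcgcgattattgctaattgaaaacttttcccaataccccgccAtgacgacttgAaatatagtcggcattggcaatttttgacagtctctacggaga
Gm22513: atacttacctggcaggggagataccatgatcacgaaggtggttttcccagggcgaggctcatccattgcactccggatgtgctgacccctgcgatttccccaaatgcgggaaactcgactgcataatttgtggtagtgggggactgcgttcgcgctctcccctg

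Values are the deposited normalized counts, which are read counts divided by 1 factor per library, and differences are on the log2 scale after adding 1. Genes that reached 10 in 6 or more of the 36 libraries were tested. It is called when its adjusted p from limma, a linear model across all 16275 genes tested with Benjamini-Hochberg adjustment, is under 0.05. Unless another fit is named, the model held all 36 libraries.

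Sirt4 had 357, 337, 376, 353, 361 and 311 normalized counts in the Tg-TAC-MitoQ hearts, against 331, 314, 395, 402, 378 and 444 in the Tg-Sham hearts. The groups overlapped, and the difference of mean log2 values was -0.10 (exact two-sided permutation p = 0.255, smallest possible p = 0.00216). The count also did not separate the genotype labels. The log2 difference was -0.02 for Tg-TAC-MitoQ minus Con-TAC-MitoQ hearts (exact permutation p = 0.742) and -0.11 for Tg-Sham minus Con-Sham hearts (exact permutation p = 0.539, adjusted p = 0.742 over both genotype tests). The sources used here do not say whether reads of the transgene would be counted under this gene, so the genotype is used below as the label states it.

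The Tg-TAC-MitoQ libraries held 21276251 to 53229714 reads in listed genes and the Tg-Sham libraries 24378507 to 29520238. The MitoQ hearts were the more uniform group, with a median SD over genes of 0.169 on the log2 scale, against 0.246 in Tg-Sham hearts. The 5 other Tg-TAC-MitoQ libraries carry the number 21 in their names and replicate 1 carries 20, while the Tg-Sham libraries carry 9, 11, 30 or 31. The sources used here do not explain this number, and because no number occurs in both groups it cannot be told apart from the treatment. Some libraries stood apart from their group. Tg-Sham replicate 2 held kidney transcripts (Kap at 10010 normalized counts, against 3.38 to 942 in the other Tg-Sham hearts and 2.55 to 356 in the Tg-TAC-MitoQ hearts), and Tg-TAC-MitoQ replicate 4 held atrial muscle transcripts (Myl7 at 404, against 0 to 10.9 in the others). Tg-Sham replicate 1 was the sham heart with the highest fetal and matrix transcripts. For fetal, matrix and fatty acid genes, Tg-TAC replicate 6 lay nearer to the sham hearts than to the other vehicle TAC hearts. For small RNAs it lay with the vehicle TAC hearts, with 0 for Gm24265, Gm24407 and Gm22513. Its Rn7sk was at 180, within the Tg-TAC range of 64.9 to 359 and below the Tg-Sham range of 1228 to 5235. Kidney transcripts were also in Tg-TAC replicate 1 (Kap at 4686). Tg-TAC replicate 4 stood out for other cell types, with median log2 deviations from the Tg-Sham mean of 5.30 for lymphocyte and neutrophil, 8.99 for adipocyte and 5.21 for epicardial markers. Results without Tg-Sham replicates 1 and 2, Tg-TAC-MitoQ replicate 4 and Tg-TAC replicate 6 are given for some of the calls they change, not for all. Nppa, Nppb, Ankrd1, Col1a1, Col6a1, Loxl1, Loxl2, Mmp2 and Cd34 were called lower in Tg-TAC-MitoQ than in Tg-TAC hearts only without Tg-TAC replicate 6. Hrc, Myh6 and Bckdha were called higher only in that fit. Their limma adjusted p there was 0.000903 to 0.0390, where 12.5% of all genes were lower and 14.9% higher. In whole hearts, fewer cells of a type and less RNA per cell cannot be told apart.

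Few genes still differed between Tg-TAC-MitoQ and Tg-Sham hearts. Of the 16275 genes tested, 21 were called (0.129%), all lower in Tg-TAC-MitoQ hearts, and 0 were called higher (0%). At an unadjusted p under 0.05 limma gave 583 higher and 608 lower genes. On the recovered reads edgeR also called 0 higher and 21 lower genes, and DESeq2 called 3 higher (Papln, Cacna1a and Sox18) and 43 lower. With libraries scaled to equal totals of non-mitochondrial reads, 59 genes were called higher and 19 lower. The median difference of all genes was 0.15 with that scaling and 0.01 with the deposited factors. In the 36-library fit, 1288 genes were called higher (7.91%) and 1428 lower (8.77%) in Tg-TAC than in Tg-Sham hearts, and 1610 higher (9.89%) and 1211 lower (7.44%) in Tg-TAC-MitoQ than in Tg-TAC hearts. The 2716 calls of Tg-TAC minus Tg-Sham became 712 in a fit of only those libraries, 1692 without Tg-TAC replicate 4, 1714 without Tg-TAC replicate 5 and 4603 without Tg-TAC replicate 6, and the 2821 calls of Tg-TAC-MitoQ minus Tg-TAC became 4446 without Tg-TAC replicate 6. Scaled to non-mitochondrial reads, Tg-TAC-MitoQ minus Tg-TAC gave 2797 higher and 483 lower genes, and edgeR gave 1361 higher and 1562 lower. These comparisons share libraries, so their values are set side by side only. The groups did not overlap for 0.645% of genes higher and 0.829% lower in Tg-TAC-MitoQ than in Tg-Sham hearts, for 3.66% higher and 2.91% lower in Tg-TAC-MitoQ than in Tg-TAC hearts, and for 1.22% higher and 0.989% lower in Tg-TAC than in Tg-Sham hearts. A model of only the 12 libraries compared, whose spread is taken from the uniform MitoQ and the sham hearts alone, called 66 genes (0.406%), 26 higher (0.16%) and 40 lower (0.246%), with 19 of them among the 21. Its count was 29 to 40 without any 1 of Tg-TAC-MitoQ replicates 1 to 6 or Tg-Sham replicates 2 and 4, and 260 without Tg-Sham replicate 1. Without both Tg-Sham replicate 2 and Tg-TAC-MitoQ replicate 4, called the 10-library fit below, it was 20.

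The largest difference was in Rn7sk, the 7SK RNA that holds the elongation kinase P-TEFb inactive. Rn7sk had 26.6, 40.3, 37.3, 36.5, 27.6 and 18.1 normalized counts in Tg-TAC-MitoQ hearts, against 1228, 1443, 3244, 4461, 2272 and 5235 in Tg-Sham hearts. Each MitoQ heart lay far below each sham heart, with a log2 difference of -6.39 ± 0.41 (SE, limma adjusted p = 1.47e-12). Vehicle TAC hearts lay between them at 64.9 to 359, and Rn7sk was called lower both in Tg-TAC-MitoQ than in Tg-TAC hearts (-1.87, limma adjusted p = 0.00272) and in Tg-TAC than in Tg-Sham hearts (-4.52, limma adjusted p = 2.25e-08).

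The small nuclear RNAs printed above were close to absent from the MitoQ hearts. Gm24407 had 0 reads in each Tg-TAC-MitoQ heart, against 3.38, 4.53, 9.51, 10.6, 13.9 and 20.8 normalized counts in Tg-Sham hearts. Gm24265 had 0, 0, 1.10, 0, 0.510 and 0 in Tg-TAC-MitoQ hearts, against 16.9, 9.07, 21.4, 20.2, 12.8 and 18.3 in Tg-Sham hearts. Gm22513 had 1.08, 0, 0, 0, 0 and 1.21 in Tg-TAC-MitoQ hearts, against 10.1, 19.3, 40.4, 47.8, 28.9 and 41.6 in Tg-Sham hearts. No MitoQ heart reached any sham heart for these genes. All were called, but they reached the minimum of 10 in sham libraries alone, so they could enter the test only by being high there. Vehicle TAC hearts were also at or near 0, with at most 1.24 for Gm24407, 0.513 for Gm24265 and 5.39 for Gm22513. Fold changes are not given for them, because with so few reads they depend on the value added before the log.

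Counts of ribosomal RNA genes were lower for both the cytosolic and the mitochondrial compartment. These are reads in the libraries, and whether they follow the RNA level in the heart was not tested. Rn18s-rs5, an 18S ribosomal RNA copy, ranged from 153200 to 361600 normalized counts in Tg-TAC-MitoQ hearts (median 258800), against 979600 to 2886000 in Tg-Sham hearts (median 1690000). That is a log2 difference of -2.74 ± 0.38 (SE, limma adjusted p = 5.88e-05), and the gene took 0.591 to 1.33% of the reads in MitoQ hearts, against 3.37 to 9.69% in sham hearts. The mitochondrial ribosomal RNAs followed the same direction. mt-Rnr1, the small-subunit RNA, had 65630, 62740, 63070, 84080, 78310 and 57530 in Tg-TAC-MitoQ hearts, against 121300, 153500, 205400, 277400, 228600 and 227000 in Tg-Sham hearts (log2 difference -1.52 ± 0.23, limma adjusted p = 0.000292). mt-Rnr2, the large-subunit RNA, differed by -1.10 (limma adjusted p = 0.0103), a call lost without Tg-Sham replicate 4. Unlike Rn18s-rs5, which was called lower than in Tg-TAC hearts as well (-2.42, limma adjusted p = 0.000179), mt-Rnr1 and mt-Rnr2 were at the level of Tg-TAC hearts (log2 differences of -0.24 and 0.01, limma adjusted p = 0.499 and 0.970), and both were called lower in Tg-TAC than in Tg-Sham hearts (-1.28 and -1.12). Whether these compartments differ in this respect was not tested.

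Malat1, a long nuclear RNA found in speckles, had 12790 to 14560 normalized counts in Tg-TAC-MitoQ hearts, against 19350 to 27090 in Tg-Sham hearts. The groups did not overlap, and the log2 difference was -0.73 ± 0.15 (limma adjusted p = 0.0335), but this call was lost in 9 of the 12 fits that left out 1 library. The other called genes were Snora73b, an H/ACA small nucleolar RNA, Scarna2, a Cajal body RNA, Gm25395 and Gm22009, annotated as Cajal body RNAs, Gm25939, annotated as a small nuclear RNA, AY036118, a noncoding gene whose span overlaps Rn18s-rs5, and Gm28661, an unprocessed pseudogene. The rest were Gm54867, Gm55094, Gm56171, Gm55936, Gm55118 and Gm37060, to which no role is assigned. Of the 21 genes 14 spanned under 500 bases (66.7%), where 1.79% of all genes tested did. Gm24265, Gm24407, Gm22513, Gm25395 and Gm25939 were the 5 that reached the minimum of 10 in sham libraries alone, and with a minimum of 50 the count of calls was 10. Of the 21, 14 stayed called in each of the 12 fits that left out 1 library, and mt-Rnr2, Gm25395, Malat1, Gm37060, Gm25939, Gm55936 and Gm55118 lost the call in at least 1. The 21 included 11 called lower in Tg-TAC-MitoQ than in Tg-TAC hearts, where 7.44% of all genes were. They included 13 called lower in Tg-TAC than in Tg-Sham hearts, where 8.77% were. Both comparisons reuse the MitoQ or sham libraries by which the 21 were picked, so these overlaps are partly built in. With Tg-Sham libraries named 9 or 11 only, 8 genes were called lower, 7 of them among the 21, and 2 higher (Atp6v0c-ps2 and Rnps1-ps, pseudogenes by name), and with those named 30 or 31 only, 19 were called lower. Without Tg-Sham replicate 2 and Tg-TAC-MitoQ replicate 4, 15 of the 21 remained called. Short transcripts depend on how RNA is purified and how libraries are size-selected, and with the library-name numbers confounded with treatment the part of these steps in the result was not tested.

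**Figure D1:**
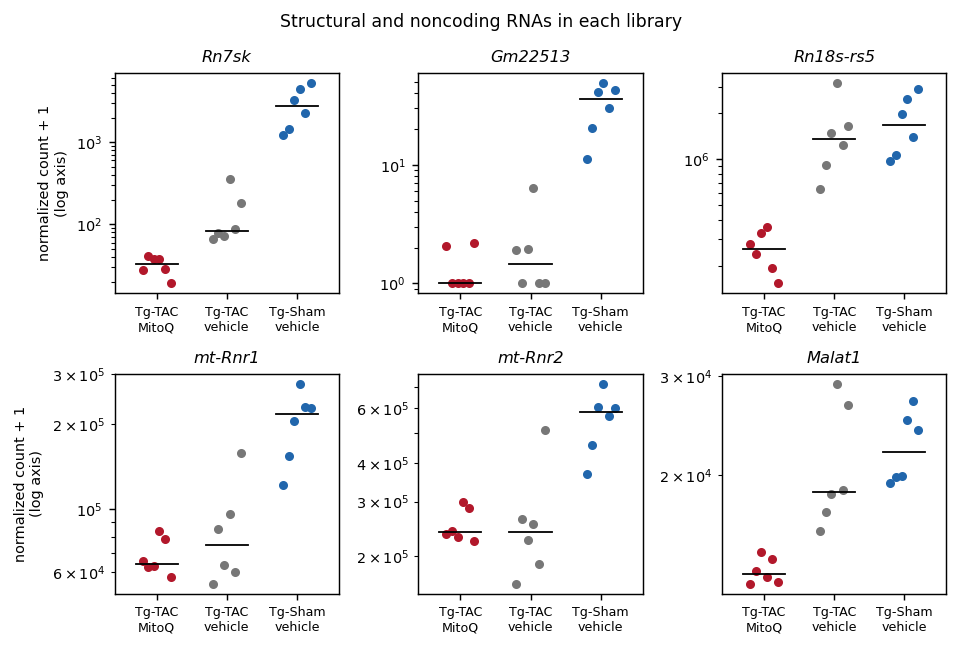
Normalized counts plus 1 (log axis) of 6 noncoding RNAs in each library of the Tg-TAC-MitoQ, Tg-TAC and Tg-Sham groups; points are libraries and horizontal lines are group medians. In each panel the 6 Tg-TAC-MitoQ points lie below the 6 Tg-Sham points. The Tg-TAC points overlap the Tg-Sham points for Rn18s-rs5 and Malat1, and for mt-Rnr1 and mt-Rnr2 through Tg-TAC replicate 6 alone.

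The fetal and hypertrophy programme was not called. Of its 22 listed genes 0 were called in either direction, 18 had a positive difference, and the median log2 difference was 0.27, beside 0.01 for all genes tested, of which 52.1% were positive. In the vehicle hearts, 10 of the 22 were called higher in Tg-TAC than in Tg-Sham hearts (median 0.62), where 7.91% of all genes were higher. Without Tg-TAC replicate 6 the count was 12 higher and 1 lower, where 13.4% of all genes were higher and 14.9% lower. MitoQ hearts against vehicle TAC hearts gave 3 called lower of 22 (median -0.41), where 7.44% of all genes were lower, and 11 lower and 1 higher without Tg-TAC replicate 6, where 12.5% were lower and 14.9% higher.

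Acta1, skeletal alpha-actin, had 89100, 58460, 98250, 50370, 90580 and 54320 normalized counts in Tg-TAC-MitoQ hearts, 192400, 142300, 192400, 16170, 93070 and 9532 in Tg-TAC hearts, and 62810, 28580, 22390, 12500, 10210 and 16730 in Tg-Sham hearts. Each MitoQ heart exceeded each sham heart except replicate 1, which reached into the MitoQ range. The log2 difference was 1.75 (95% interval 0.60 to 2.92, unadjusted p = 0.00419, limma adjusted p = 0.445). In the 12-library fit its limma adjusted p was 0.100, and 0.00942 without Tg-Sham replicate 1.

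The natriuretic peptides were not called. Nppa, atrial natriuretic peptide, had 38640, 22320, 36260, 30440, 45660 and 25890 normalized counts in Tg-TAC-MitoQ hearts, 207300, 94190, 166800, 245200, 194300 and 3535 in Tg-TAC hearts, and 38010, 19720, 9398, 12220, 13670 and 19830 in Tg-Sham hearts. The MitoQ hearts overlapped sham replicate 1 and lay below 5 of the 6 vehicle TAC hearts. The log2 difference from sham was 0.93 (95% interval -0.51 to 2.38, limma adjusted p = 0.802). Nppb, brain natriuretic peptide, gave 0.10 (95% interval -0.74 to 0.93), Myh7, the slow beta-myosin heavy chain, 0.13 (-0.79 to 1.04), and Ankrd1, a stretch-responsive Z-disc protein, -0.00 (-0.68 to 0.68), with limma adjusted p of 0.972, 0.967 and 1. Myh6, the adult alpha-myosin, ranged from 698500 to 790500 in Tg-TAC-MitoQ hearts, against 533200 to 984800 in Tg-Sham hearts (log2 difference -0.18, limma adjusted p = 0.902). Fhl1, a LIM protein of the sarcomere, and Enah, an actin regulator, had differences of 0.34 and 0.35 from sham hearts (limma adjusted p = 0.892 and 0.758), and both were called lower in Tg-TAC-MitoQ than in Tg-TAC hearts (-1.42 and -0.71, limma adjusted p = 0.0113 and 0.0266). Des, desmin, was at the sham level (-0.00, 95% interval -0.35 to 0.34) and called lower than in Tg-TAC hearts (-0.90, limma adjusted p = 0.000749).

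**Figure D2:**
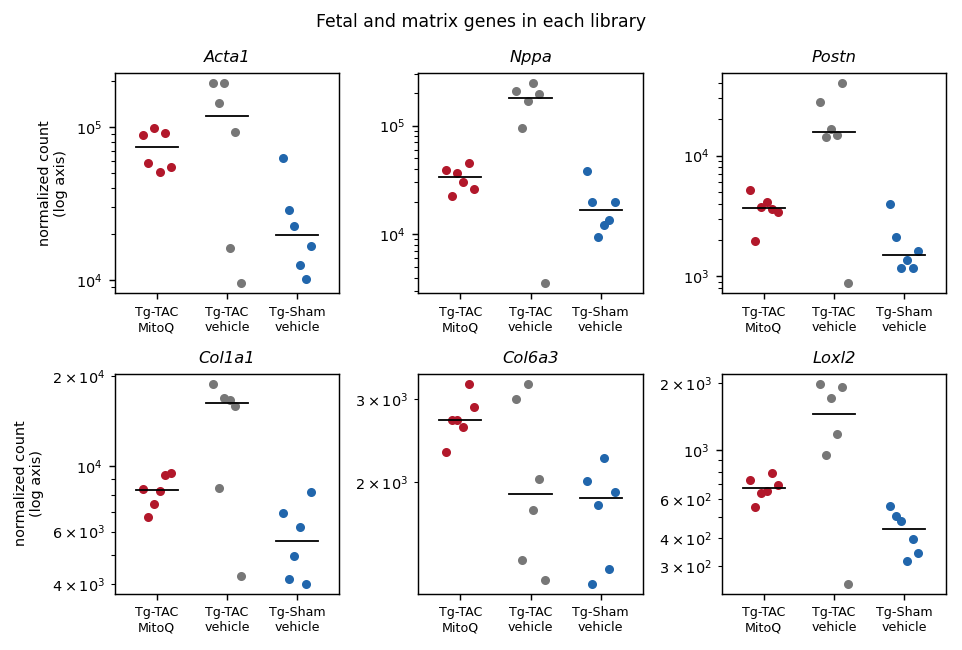
Normalized counts (log axis) of 6 fetal and matrix genes in each library; points are libraries and horizontal lines are group medians. Tg-TAC-MitoQ medians lie above Tg-Sham medians in each panel and below Tg-TAC medians in all but Col6a3, and the lowest Tg-TAC point for Nppa, Postn and Loxl2 is replicate 6.

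Matrix genes leaned upward without a call. Of 45 matrix genes 0 were called, 37 had a positive difference and the median was 0.49. Per library, the median deviation of the 45 genes from the Tg-Sham mean was 0.27 to 0.59 in the MitoQ hearts, and -0.42 to 0.36 in the sham hearts, where the top value was that of Tg-Sham replicate 1. In vehicle TAC hearts it was 0.80 to 1.64, apart from -0.48 in replicate 6. The groups therefore overlapped, and only through Tg-Sham replicate 1 for the hearts with MitoQ.

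In the 12-library fit 3 matrix genes were called higher, Col6a1, Col6a3 and Vcan. Col6a3, a chain of the microfibril-forming collagen VI, had 2315, 2712, 2705, 2619, 3228 and 2886 normalized counts in Tg-TAC-MitoQ hearts, 3006, 1371, 3237, 1752, 2029 and 1244 in Tg-TAC hearts, and 2012, 1221, 1787, 2248, 1313 and 1912 in Tg-Sham hearts. The MitoQ hearts lay above each sham heart, and the log2 difference was 0.68 (95% interval 0.23 to 1.13, limma adjusted p = 0.451, and 0.0478 in the 12-library fit). Col6a1 ranged from 3855 to 4633 in Tg-TAC-MitoQ hearts, against 2672 to 3700 in Tg-Sham hearts, again without overlap (log2 difference 0.42, limma adjusted p = 0.578, and 0.0353 in the 12-library fit). Vcan, the proteoglycan versican, had a log2 difference of 0.83 (limma adjusted p = 0.661, and 0.0247 in the 12-library fit), and its lowest MitoQ heart at 877 overlapped Tg-Sham replicate 1 at 882.

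That fit turned on single libraries. Without Tg-Sham replicate 1 it called 16 of the 45 matrix genes higher and 0 lower, where 0.7% of all genes were higher, and the 16 were Bgn, Col12a1, Col14a1, Col1a2, Col6a1, Col6a2, Col6a3, Col8a1, Fbln2, Fn1, Ltbp2, Lum, Postn, Thbs4, Tnc and Vcan. The fetal list then had 3 called higher, Acta1, Enah and Nppa. The 10-library fit called 0 matrix genes, where 0.123% of all genes were called, and the adjusted p of Col6a1, Col6a3 and Vcan were 0.150, 0.122 and 0.0697. The list's median moved little, at 0.55 and 0.48 in these fits.

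The fibrillar collagens and periostin lay between the sham and vehicle TAC hearts. Col1a1 had 8326, 6708, 7448, 8223, 9313 and 9473 normalized counts in Tg-TAC-MitoQ hearts, 18930, 8412, 16920, 16720, 15870 and 4239 in Tg-TAC hearts, and 6957, 4169, 4984, 6200, 4007 and 8145 in Tg-Sham hearts. The MitoQ and sham hearts overlapped (log2 difference 0.56, 95% interval -0.12 to 1.25, limma adjusted p = 0.736). Col3a1 gave 0.55 (95% interval -0.17 to 1.27, limma adjusted p = 0.762). Postn, a matricellular protein of activated fibroblasts, ranged from 1942 to 5204 in Tg-TAC-MitoQ hearts, from 871 to 39950 in Tg-TAC hearts, and from 1175 to 3947 in Tg-Sham hearts. Its log2 difference was 1.03 from Tg-Sham hearts (limma adjusted p = 0.745) and -1.81 from Tg-TAC hearts, a call (limma adjusted p = 0.0463) that stood at -2.57 without Tg-TAC replicate 6 (limma adjusted p = 0.000429). Of the 45 matrix genes, 13 were called lower in Tg-TAC-MitoQ than in Tg-TAC hearts, where 7.44% of all genes were lower, and 30 without Tg-TAC replicate 6, where 12.5% were. None of the 45 was called higher in either limma fit. Col15a1, a basement membrane collagen, did not overlap between MitoQ hearts at 4365 to 5676 and sham hearts at 1957 to 3905 (log2 difference 0.64, limma adjusted p = 0.565). It was 1 of 3 matrix genes without overlap, all higher, where 0.645% of the genes tested did not overlap in that direction.

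Elastic fibre genes, matrix-processing enzymes and TGF-beta genes had smaller positive medians. They were 0.33 over 17 elastic fibre genes, 0.11 over 28 enzymes and 0.13 over 36 TGF-beta and myofibroblast genes, with 0 called in each. Eln, elastin, had 1778, 1125, 1131, 1581, 1705 and 1793 normalized counts in Tg-TAC-MitoQ hearts, against 902, 680, 1163, 1393, 805 and 1339 in Tg-Sham hearts. The groups overlapped (log2 difference 0.56, limma adjusted p = 0.634), and Eln was called lower in Tg-TAC-MitoQ than in Tg-TAC hearts (-0.83, limma adjusted p = 0.0170). Loxl1, which cross-links elastin, had 1548 to 1734 in Tg-TAC-MitoQ hearts, against 888 to 1479 in Tg-Sham hearts, with no overlap and a log2 difference of 0.41 (limma adjusted p = 0.783).

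The 12-library fit called Loxl2 and Mmp2 higher. Loxl2, a lysyl oxidase that cross-links collagen, had 735, 557, 640, 656, 793 and 699 normalized counts in Tg-TAC-MitoQ hearts, against 560, 506, 479, 315, 399 and 342 in Tg-Sham hearts (log2 difference 0.67, limma adjusted p = 0.714, and 0.0402 in the 12-library fit). Only sham replicate 1 reached the lowest MitoQ heart. Mmp2, a gelatinase, had 2350, 2286, 2375, 2534, 2615 and 2478 in Tg-TAC-MitoQ hearts, against 2031, 1631, 1683, 1768, 1844 and 1988 in Tg-Sham hearts (log2 difference 0.42, limma adjusted p = 0.645, and 0.00691 in the 12-library fit). There was no overlap for Mmp2, and the 12-library call held whichever single library was left out. In the 10-library fit the limma adjusted p of Mmp2 was 0.0697 and that of Loxl2 0.0958. Meox1, a transcription factor of activated fibroblasts, and Ltbp2, a latent TGF-beta binding protein family member, had differences of 0.70 and 1.24 (limma adjusted p = 0.716 and 0.769). Both were called lower in Tg-TAC-MitoQ than in Tg-TAC hearts (-1.42 and -2.40, limma adjusted p = 0.0106 and 0.0418).

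**Figure D3:**
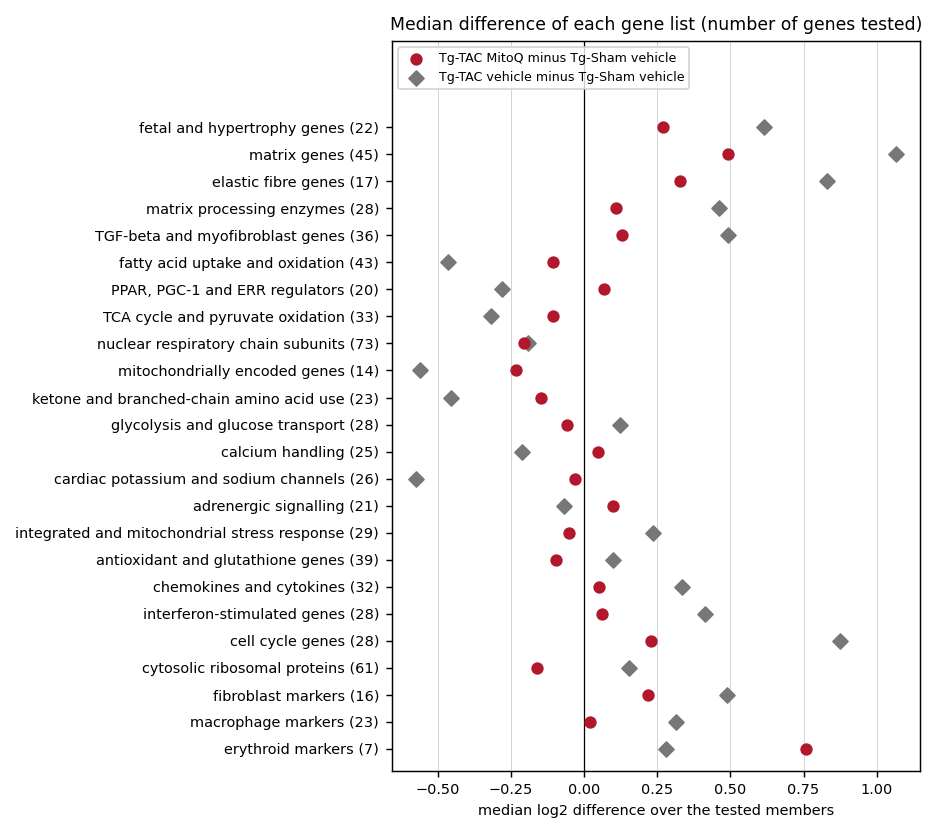
Median log2 difference of 24 of the 49 gene lists, with the number of genes tested in brackets; circles are Tg-TAC-MitoQ minus Tg-Sham and diamonds Tg-TAC minus Tg-Sham, which share the sham libraries. The circles lie between -0.23 and 0.76, with matrix genes at 0.49 against 1.07 for the diamond, and potassium and sodium channels at -0.03 against -0.57.

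Fuel metabolism stood near the sham level. Of 43 genes of fatty acid uptake and oxidation 0 were called, 33 had a negative difference, and the median was -0.11. In Tg-TAC hearts 18 of them were called lower than in Tg-Sham hearts (median -0.46), where 8.77% of all genes were lower, and 34 without Tg-TAC replicate 6, where 14.9% were. Hadha, the trifunctional protein of beta-oxidation, had 39250, 41570, 33860, 37010, 32830 and 32300 normalized counts in Tg-TAC-MitoQ hearts, 23360, 27610, 25230, 15240, 21350 and 44290 in Tg-TAC hearts, and 38920, 41480, 45090, 36570, 37810 and 33960 in Tg-Sham hearts. MitoQ and sham hearts overlapped (log2 difference -0.11, 95% interval -0.47 to 0.25, limma adjusted p = 0.932), and MitoQ hearts were called higher than vehicle TAC hearts (0.53, limma adjusted p = 0.0330). Acacb, the acetyl-CoA carboxylase that controls fatty acid entry into mitochondria, gave 0.09 from Tg-Sham hearts (95% interval -0.24 to 0.42) and 0.83 from Tg-TAC hearts (limma adjusted p = 0.000934). Cpt1b, the muscle carnitine palmitoyltransferase, gave 0.06 (95% interval -0.48 to 0.60) and 1.08 (limma adjusted p = 0.00543) in the same comparisons. Etfb, a subunit of the electron transfer flavoprotein, was the exception that the 12-library fit called lower, at 140 to 228 in Tg-TAC-MitoQ hearts and 204 to 397 in Tg-Sham hearts (log2 difference -0.79, limma adjusted p = 0.537, and 0.0432 in the 12-library and 0.114 in the 10-library fit).

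The PPAR and PGC-1 regulators had a median of 0.07 over 20 genes, with 0 called. Ppara, the fatty acid receptor of the nuclear receptor family, had 1189, 896, 934, 1054, 1025 and 1226 normalized counts in Tg-TAC-MitoQ hearts, 290, 394, 441, 268, 328 and 562 in Tg-TAC hearts, and 989, 914, 935, 1025, 247 and 644 in Tg-Sham hearts. Each MitoQ heart exceeded each vehicle TAC heart (log2 difference 1.51, limma adjusted p = 0.000655). The difference from Tg-Sham hearts was 0.54 (95% interval -0.02 to 1.11, limma adjusted p = 0.696), with Tg-Sham replicates 5 and 6 lowest. Ppargc1a, the coactivator PGC-1 alpha, ranged from 2358 to 2852 in Tg-TAC-MitoQ hearts, from 1029 to 2808 in Tg-TAC hearts, and from 2329 to 3370 in Tg-Sham hearts (-0.05 from sham, limma adjusted p = 0.967).

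Respiratory chain subunits encoded in the nucleus leaned downward as a list. Of 73 genes 71 had a negative difference and the median was -0.20, with 0 called. Scaled to non-mitochondrial reads, the median was -0.06, when that of all genes was 0.15. The median was of the same size in vehicle hearts, at -0.19 for Tg-TAC minus Tg-Sham. Per library the median deviation was -0.34 to -0.08 in Tg-TAC-MitoQ hearts, and -0.27 to 0.37 in Tg-Sham hearts, so the groups overlapped. Atp5e, the epsilon subunit of ATP synthase, had 4102, 3761, 3913, 4343, 4329 and 3493 normalized counts in Tg-TAC-MitoQ hearts, against 4274, 5413, 5759, 6122, 7370 and 6209 in Tg-Sham hearts. It was the list's single member called in the 12-library fit (log2 difference -0.54, limma adjusted p = 0.570, and 0.0353 in that fit), with Tg-Sham replicate 1 inside the MitoQ range. Without that heart the 12-library fit called 13 of the 73 lower, where 0.897% of all genes were lower, and in the 10-library fit the adjusted p of Atp5e was 0.0921. Ndufa10, a complex I subunit, did not overlap between MitoQ hearts at 12010 to 13470 and sham hearts at 13770 to 17660 (log2 difference -0.21, limma adjusted p = 0.706), where 0.829% of the genes tested did not overlap in that direction.

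The mitochondrial genome followed. All 14 tested members of its list had a negative difference (median -0.23). The ribosomal RNAs mt-Rnr1 and mt-Rnr2 were the 2 called, and mt-Co2 was called in addition in the 12-library fit. That fit also called mt-Tt lower, a gene of the mitochondrial genome outside the list (log2 difference -0.73, limma adjusted p = 0.341, and 0.0353 in the 12-library fit). mt-Co2, a cytochrome oxidase subunit, had 238, 183, 201, 183, 267 and 262 normalized counts in Tg-TAC-MitoQ hearts, against 339, 342, 411, 382, 648 and 330 in Tg-Sham hearts. These groups did not overlap (log2 difference -0.85, limma adjusted p = 0.301, and 0.0336 in the 12-library and 0.0992 in the 10-library fit). mt-Atp6, an ATP synthase subunit, differed by -0.62 (limma adjusted p = 0.546), also without overlap. Mean counts in Tg-TAC-MitoQ hearts were only 222.5 for mt-Co2 and 80.25 for mt-Atp6, against 253100 for mt-Rnr2. Whether reads of these genes were assigned elsewhere was not tested, so the counts may not give their transcript levels. The share of all reads from the mitochondrial genome was 19.5 to 22.6% in Tg-TAC-MitoQ hearts, against 17.7 to 27.9% in Tg-Sham hearts.

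The TCA cycle list had a median of -0.11 over 33 genes, the glycolysis list -0.06 over 28, and the list of ketone and branched-chain amino acid use -0.15 over 23, each with 0 called. Negative differences were 27 of 33 and 21 of 23 in the TCA and ketone lists. Without Tg-Sham replicate 1 the 12-library fit, where 0.897% of all genes were lower, called 7 TCA genes lower (Mdh1, Mdh2, Sdha, Sdhb, Sdhc, Sucla2 and Suclg1), 3 of the ketone and branched-chain list (Bckdha, Ivd and Mccc1), 3 of the fatty acid list (Acadm, Echs1 and Etfb) and 2 of the glycolysis list (Eno3 and Ldhb). Scaled to non-mitochondrial reads the medians of the fatty acid, TCA cycle and glycolysis lists were positive, at 0.04, 0.04 and 0.08, and that of the ketone list was -0.01, beside 0.15 for all genes. Bckdha, a subunit of the branched-chain keto acid dehydrogenase, had 4799 to 6022 normalized counts in Tg-TAC-MitoQ hearts, against 6146 to 8743 in Tg-Sham hearts, with no overlap (log2 difference -0.37, limma adjusted p = 0.678). Ivd, the isovaleryl-CoA dehydrogenase of leucine breakdown, had 7726 to 8828, against 9104 to 10700 in Tg-Sham hearts, likewise with no overlap (-0.26, limma adjusted p = 0.774). In Tg-TAC hearts Ivd was at 3578 to 6388, below each MitoQ heart, apart from replicate 6 at 12140.

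**Figure D4:**
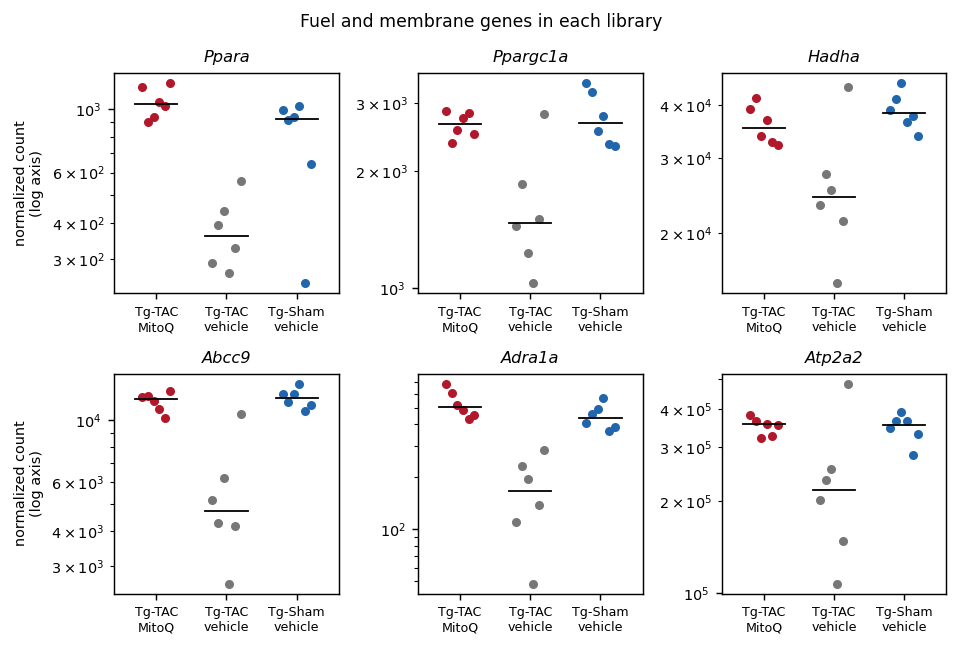
Normalized counts (log axis) of 6 fuel and membrane genes in each library; points are libraries and horizontal lines are group medians. The Tg-TAC-MitoQ points overlap the Tg-Sham points in each panel, the Tg-TAC medians are the lowest, and the highest Tg-TAC point is replicate 6 in each.

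Ion channels and receptors were at the sham level. The list of 26 potassium and sodium channels had a median of -0.03 with 0 called (0.11 when scaled to non-mitochondrial reads), where 13 were called lower in Tg-TAC than in Tg-Sham hearts (median -0.57, with 8.77% of all genes lower) and 15 higher in Tg-TAC-MitoQ than in Tg-TAC hearts (median 0.53, with 9.89% of all genes higher). Abcc9, the regulatory subunit of the cardiac ATP-sensitive potassium channel, had 12070, 12160, 11690, 11000, 10210 and 12740 normalized counts in Tg-TAC-MitoQ hearts, 5161, 4280, 6217, 2589, 4178 and 10560 in Tg-TAC hearts, and 12430, 11630, 12450, 13530, 10770 and 11340 in Tg-Sham hearts. MitoQ and sham hearts overlapped (log2 difference -0.05, 95% interval -0.45 to 0.35, limma adjusted p = 0.971), while MitoQ hearts were called higher than vehicle TAC hearts (1.22, limma adjusted p = 0.000203).

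The adrenergic list of 21 genes had a median of 0.10 with 0 called. Adra1a, the alpha-1A adrenoceptor, had 688, 606, 517, 488, 432 and 456 normalized counts in Tg-TAC-MitoQ hearts, 109, 230, 193, 48.5, 138 and 286 in Tg-TAC hearts, and 407, 461, 494, 568, 367 and 386 in Tg-Sham hearts. The difference from sham was 0.24 (95% interval -0.38 to 0.87, limma adjusted p = 0.906) and that from vehicle TAC hearts 1.84 (limma adjusted p = 0.000261). The MitoQ hearts overlapped the sham hearts and exceeded each vehicle TAC heart.

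Calcium handling gave a median of 0.05 over 25 genes with 0 called. Atp2a2, the calcium pump SERCA2, ranged from 322200 to 382200 normalized counts in Tg-TAC-MitoQ hearts and from 282300 to 390300 in Tg-Sham hearts (log2 difference 0.02, 95% interval -0.41 to 0.45). Pln, phospholamban, the inhibitor of that pump, gave -0.16 (95% interval -0.53 to 0.22, limma adjusted p = 0.895). Hrc, a calcium-binding protein of the sarcoplasmic reticulum, had 22200, 22450, 22180, 21560, 21850 and 21270 in Tg-TAC-MitoQ hearts, against 24970, 28810, 28730, 29210, 25170 and 25940 in Tg-Sham hearts. It did not overlap, and its log2 difference was -0.31 (limma adjusted p = 0.835, and 0.0349 in the 12-library and 0.182 in the 10-library fit). The 36-library fit draws its spread partly from vehicle TAC hearts, where Hrc ran from 5468 to 35610.

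**Figure D5:**
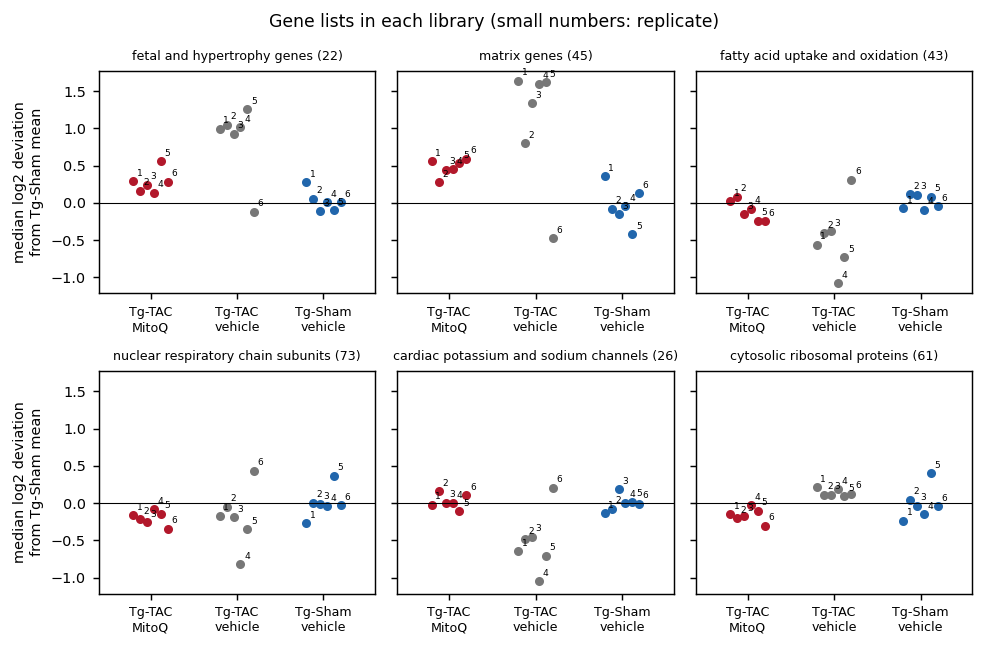
Median log2 deviation of 6 gene lists from the Tg-Sham mean in each library, with replicate numbers beside the points and the number of genes in brackets. For matrix genes the Tg-TAC-MitoQ hearts lie at 0.27 to 0.59 and Tg-TAC hearts at 0.80 to 1.64, apart from Tg-TAC replicate 6 at -0.48, and for fetal genes Tg-Sham replicate 1 at 0.27 lies within the MitoQ range of 0.13 to 0.56.

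Stress and redox genes did not differ by the test. The integrated and mitochondrial stress response had 0 called of 29 (median -0.05), endoplasmic reticulum chaperones 0 of 18 (0.03), heat shock genes 0 of 18 (0.10), and antioxidant and glutathione genes 0 of 39 (-0.10). The stress and antioxidant medians were 0.09 and 0.04 when scaled to non-mitochondrial reads. Atf4, a transcription factor of the integrated stress response, had 1237 to 2001 normalized counts in Tg-TAC-MitoQ hearts, 1638 to 2948 in Tg-TAC hearts and 1380 to 1817 in Tg-Sham hearts, a difference of 0.02 from sham and -0.56 from vehicle TAC (limma adjusted p = 0.988 and 0.00368). Nupr1, a stress-induced nuclear protein, gave -0.05 from Tg-Sham and -1.72 from Tg-TAC hearts (limma adjusted p = 0.989 and 0.00479). Txn1, cytosolic thioredoxin, had 1027 to 1184 in Tg-TAC-MitoQ hearts, 1454 to 1635 in Tg-TAC hearts and 994 to 1424 in Tg-Sham hearts, a difference of -0.12 from sham and -0.50 from vehicle TAC (limma adjusted p = 0.834 and 0.00102). Gsta3, a glutathione transferase, had 92.5 to 131 in Tg-TAC-MitoQ hearts, against 138 to 546 in Tg-Sham hearts, without overlap (log2 difference -0.89, limma adjusted p = 0.551). Its 2 highest sham values, 375 and 546, were those of replicates 1 and 2, and replicate 2 is the heart with kidney transcripts. The part of kidney RNA in this difference was not tested. The sirtuin and NAD list of 22 genes had a median of -0.04 (0.10 when scaled to non-mitochondrial reads) and the list of NADPH oxidases and other oxidant sources 0.09 over 15, with 0 called in both.

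Inflammatory lists were near 0 too. Chemokines and cytokines had 0 called of 32 (median 0.05), interferon-stimulated genes 0 of 28 (0.06) and complement and antigen presentation 0 of 26 (0.07). Lif, a cytokine of the interleukin-6 family, was called higher in the 12-library fit, at 18.4, 20.8, 28.5, 26.9, 24.5 and 26.6 normalized counts in Tg-TAC-MitoQ hearts, 8.69 to 34.1 in Tg-TAC hearts, and 6.75, 11.3, 5.95, 6.37, 8.56 and 7.33 in Tg-Sham hearts. The MitoQ hearts lay above each sham heart (log2 difference 1.55, limma adjusted p = 0.521, and 0.00982 in the 12-library fit). Lif kept that call in the 10-library fit (limma adjusted p = 0.0401) and was then the only gene called higher. Mif, macrophage migration inhibitory factor, was at the sham level (0.09, limma adjusted p = 0.937) and lower than in Tg-TAC hearts (-0.74, limma adjusted p = 0.00200). Ccl24, an eosinophil chemokine, had 16.5 to 32.5 in Tg-TAC-MitoQ hearts, against 34.5 to 73.8 in Tg-Sham hearts, without overlap (-0.90, limma adjusted p = 0.669). Ccr2, the receptor of recruited monocytes, spread from 155 to 649 in Tg-TAC-MitoQ hearts, against 173 to 435 in Tg-Sham hearts (0.02, limma adjusted p = 0.996).

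Cell type markers gave the following levels, as sums of normalized counts. The 13 cardiomyocyte markers summed to 2256000 to 2420000 in Tg-TAC-MitoQ hearts and to 2476000 to 2751000 in Tg-Sham hearts, so the groups did not overlap. The median log2 deviation of these markers per library did overlap, at -0.26 to -0.13 in Tg-TAC-MitoQ hearts and -0.17 to 0.27 in Tg-Sham hearts. No member was called, and Mb, myoglobin, differed by -0.25 (limma adjusted p = 0.721). Fibroblast markers summed to 96000 to 113800, against 79620 to 110800 in Tg-Sham hearts, endothelial markers to 38970 to 43230, against 34130 to 41780, and macrophage markers to 17960 to 19870, against 15190 to 21930, each with overlap and with 0 of 16, 18 and 23 markers called. These values stand beside the matrix and respiratory lists, and the part of cell composition in them was not tested. Cd34, found on fibroblasts and endothelium, had 3471 to 4048 in Tg-TAC-MitoQ hearts, against 2882 to 3331 in Tg-Sham hearts, without overlap (0.24, limma adjusted p = 0.706). Epicardial and mesothelial markers had a median difference of 1.17 and per-library medians of -1.40 to 2.84 in Tg-TAC-MitoQ hearts, against -1.19 to 2.15 in Tg-Sham hearts. Atrial muscle markers had a median of 0.80, with per-library medians of -0.18 to 2.43, highest in replicate 4, against -0.53 to 0.16 in Tg-Sham hearts. Both lists overlapped and had 0 called. The 7 erythroid markers tested all had positive differences (median 0.76) with 0 called, and Alas2, the erythroid enzyme of haem synthesis, ranged from 282 to 618, against 150 to 408 in Tg-Sham hearts (0.86, limma adjusted p = 0.382). The 28 cell cycle genes had a median of 0.23 and the 61 cytosolic ribosomal protein genes -0.16, again with 0 called. Of the ribosomal protein genes 31 were called lower in Tg-TAC-MitoQ than in Tg-TAC hearts, where 7.44% of all genes were lower. Only 2 of the 49 lists had a called member, the mitochondrial genome and the small noncoding RNAs (4 of 6 lower), and 12 of 48 list medians changed sign when scaled to non-mitochondrial reads. Among ribosomal proteins, Rps24 is an example, with a difference of -0.32 from Tg-Sham hearts (limma adjusted p = 0.30) and -0.32 from Tg-TAC hearts (limma adjusted p = 0.0164).

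Other genes called in the 12-library fit are named here after their values were seen. Kbtbd12, a Kelch and BTB domain protein, had 597, 442, 448, 486, 484 and 497 normalized counts in Tg-TAC-MitoQ hearts, 625 to 1223 in Tg-TAC hearts, and 1043, 1033, 1307, 1387, 937 and 1105 in Tg-Sham hearts (log2 difference -1.20, limma adjusted p = 0.119, and 1.32e-05 in the 12-library fit). The MitoQ hearts lay below each heart of both other groups, and the gene was called lower than in Tg-TAC hearts (-0.86, limma adjusted p = 0.0349), a call lost without Tg-TAC replicate 6 (-0.76, limma adjusted p = 0.0544). In the 10-library fit its adjusted p against Tg-Sham hearts was 0.000177. Pyroxd2, a predicted oxidoreductase, had 229, 70.2, 68.0, 53.8, 59.2 and 67.7 in Tg-TAC-MitoQ hearts, against 291, 325, 269, 250, 239 and 310 in Tg-Sham hearts, with replicate 1, the MitoQ library named 20, close to the sham range (log2 difference -1.81, limma adjusted p = 0.119, and 0.0102 in the 12-library and 0.0789 in the 10-library fit). In Control hearts both genes overlapped between the groups and were not called. Pyroxd2 was at 51.6 to 203 in Con-TAC-MitoQ and 45.9 to 252 in Con-Sham hearts (log2 difference -0.14, limma adjusted p = 0.891). Kbtbd12 was at 377 to 604 in Con-TAC-MitoQ and 455 to 1459 in Con-Sham hearts (-0.49, limma adjusted p = 0.381). The difference between genotypes was called for neither (limma adjusted p = 0.9995).

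Among genes higher in that fit, Sox18, an endothelial transcription factor, had 1147 to 1605 normalized counts in Tg-TAC-MitoQ hearts, 1268 to 1538 in Tg-TAC hearts, and 677 to 1022 in Tg-Sham hearts (log2 difference 0.67, limma adjusted p = 0.119, and 0.0247 in the 12-library and 0.12 in the 10-library fit). Here the MitoQ hearts stood with the vehicle TAC hearts, at a difference of -0.05 (limma adjusted p = 0.863), and Sox18 was called higher in Tg-TAC than in Tg-Sham hearts (0.72, limma adjusted p = 0.00378). Aqp8, a water and peroxide channel, had 320, 302, 314, 308, 403 and 238 in Tg-TAC-MitoQ hearts, 80.8 to 596 in Tg-TAC hearts, and 191, 134, 91.6, 182, 178 and 172 in Tg-Sham hearts (1.01, limma adjusted p = 0.578, and 0.0143 in the 12-library and 0.0885 in the 10-library fit). Rxfp1, the relaxin receptor, had 46.1 to 130 in Tg-TAC-MitoQ hearts, against 15.5 to 45.0 in Tg-Sham hearts (1.47, limma adjusted p = 0.673, and 0.0353 in the 12-library and 0.150 in the 10-library fit). Of the 66 genes of the 12-library fit 25 stayed called whichever single library was left out, among them Kbtbd12, Lif and Elf4, an ETS transcription factor, and also Pyroxd2, Aqp8 and Mmp2, which were not called in the 10-library fit.

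Control hearts under the same surgery and treatment gave a larger count of calls, without a test of that difference in count. In Con-TAC-MitoQ against Con-Sham hearts 115 genes were called (0.707%), 57 higher (0.35%) and 58 lower (0.356%), or 1605 and 80 when scaled to non-mitochondrial reads. The count was 57 without Con-TAC-MitoQ replicate 3 (22 higher), the heart with the highest Postn of its group (10320, against 1094 to 3824), 73 without Con-Sham replicate 2, and 105 without Con-TAC-MitoQ replicate 5, which held atrial transcripts (Myl7 at 4611). The groups did not overlap for 2.18% of genes higher and 2% lower. The 58 included 19 of the 21 genes lower in the cSirt4-Tg contrast (90.5% of the 21 and 16.5% of the 115 called in Control hearts). These contrasts share no library, but they share the gene filter and the spread per gene of the fit. The 19 include Gm24265, Gm24407, Gm22513, Gm25395 and Gm25939, which reached the filter minimum in sham libraries alone. Those genes could enter the test only by being high in sham hearts, so their part of the overlap is partly built in. Rn7sk had 16.8 to 37.4 normalized counts in Con-TAC-MitoQ hearts, against 1764 to 7997 in Con-Sham hearts, and the snRNA genes Gm24265, Gm24407 and Gm22513 had 0 in all 6 Con-TAC-MitoQ hearts. Malat1 and Gm37060 were the 2 not called in Control hearts (log2 differences of -0.46 and -1.25, limma adjusted p = 0.143 and 0.182).

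The difference between the genotypes in this contrast was called for 0 genes by limma, edgeR and DESeq2, with 408 genes at an unadjusted p under 0.05 and a smallest limma adjusted p of 0.9995. The gene with the smallest p was Atp8a2, a phospholipid flippase. It had 480 to 716 normalized counts in Tg-TAC-MitoQ hearts, against 413 to 757 in Tg-Sham hearts, and 467 to 619 in Con-TAC-MitoQ hearts, against 243 to 301 in Con-Sham hearts. The contrast was 0.23 under the cSirt4-Tg label and 1.13 in Control hearts, a difference of -0.90 (limma adjusted p = 0.9995). Con-Sham hearts were below the other groups, and with array weights Atp8a2 was the single gene called (limma adjusted p = 0.0161). The next were Met, the hepatocyte growth factor receptor (0.07 against 1.70), Plau, urokinase (-0.61 against 0.60), Ppbp, a platelet chemokine (-0.25 against 2.15), and Jaml, a leukocyte adhesion molecule (0.14 against 2.48). For Met the Con-Sham hearts were at 16.1 to 55.0, against 60.7 to 169 in Tg-Sham hearts.

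Acta1 was called in Control hearts, at 43720 to 163100 normalized counts in Con-TAC-MitoQ hearts, against 3483 to 10130 in Con-Sham hearts (log2 difference 3.58, limma adjusted p = 0.000407), and not under the cSirt4-Tg label (1.75). The difference between these, -1.83, was not called (limma adjusted p = 0.9995). Of the 7 erythroid markers 6 were called higher in Con-TAC-MitoQ than in Con-Sham hearts (median 1.62), and their difference between genotypes was called for 0.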

How the data were processed

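RNA was isolated from snap-frozen whole hearts and sequenced from directional libraries, per the labels' protocols. The submitters' processing notes name Trim Galore, STAR and mm39. Versions, the counting step and the normalization method were not stated there or in the labels. The authors deposited 1 normalized signal per gene and library. 100% of the values were whole reads (within 0.01 read) times 1 step per library, so the reads were recovered. All sample columns were matched to labels, and 0 were unused. Of 25626 genes listed, 16275 reached 10 in 6 or more libraries and entered the tests.

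After adding a pseudocount of 1 and taking log2, limma 3.58.1 (R 4.3.3) was fitted with 1 mean for each of the 6 groups over 36 libraries (30 residual degrees of freedom, trend and robust moderation), two-sided, with Benjamini-Hochberg adjustment over all genes tested and a threshold of 0.05. On the recovered reads edgeR 4.0.16 (quasi-likelihood, 21 genes called) and DESeq2 1.42.0 were alternatives. The 12-library fit has 10 residual degrees of freedom. The 36- and 12-library limma fits were also run on simulated data, in which each group had the spread of the Tg-Sham hearts. The groups here differ in spread, with a median SD of 0.169 in Tg-TAC-MitoQ, 0.246 in Tg-Sham and 0.351 in Tg-TAC hearts. The simulation therefore cannot show how the fits behave with unequal spread. Intervals are 95% confidence intervals for the difference of group means. Their standard errors use 1 spread per gene, estimated over mice of all 6 groups.

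The groups compared, 48 gene lists with 1145 listed members and the tests were chosen with earlier results of these data known, and the list of kidney transcripts was added afterwards. Named genes are Sirt4, up to 12 called genes per direction (largest differences first, mean level 100 or more, no overlap), up to 4 called members per list, the 5 genes with the smallest p between genotypes, and list members that did not pass. Further called genes were named after their values were seen, to account for all 21. Gene positions follow the deposited table. Gene types and sequences come from GENCODE vM21 on GRCm38, matched by symbol.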

Additional observations from a re-analysis of the deposited data

Results flagged for a closer look

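In 12 of the 184 pairs of a named gene and a group of 6, 1 library lay far from the other 5. Chance alone gives about 1 in 20 such pairs. Tg-TAC-MitoQ replicate 1 had 229 normalized counts of Pyroxd2, against 53.8 to 70.2 in the other MitoQ hearts, replicate 2 had 1.30 of Gm25939 where the others had 0, replicate 4 had 121 of Sln, an atrial calcium pump regulator, against 0 to 3.57, and replicate 6 had 92.5 of Gsta3, against 115 to 131.

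Among sham hearts, replicate 5 accounted for 5 of the 12 pairs. It had low Acacb (6994, against 9750 to 11080), Ppara (247, against 644 to 1025) and Myh6 (533200, against 829500 to 984800), and high mt-Co2 (648, against 330 to 411) and mt-Atp6 (199, against 101 to 127). Tg-Sham replicate 3 had 96840 of Ankrd1, against 133000 to 156500, and 88.0 of Gm10503, where the other sham hearts had 0. Tg-Sham replicate 2, the heart with kidney transcripts, had 38.5 of Jaml, against 12.8 to 17.0.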

How the results depend on the processing

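The 21 calls between Tg-TAC-MitoQ and Tg-Sham hearts became 10 with a minimum of 50, where fewer genes were tested, 78 with scaling to non-mitochondrial reads (59 higher), 148 with array weights (43 higher), 46 with DESeq2, 10 with sham libraries named 9 or 11 only, 66 with only the 12 libraries, and 65 with edgeR on those 12, and the cause was not tested. They ranged from 15 (without Tg-Sham replicate 6) to 24 (without Tg-Sham replicate 1) when 1 library was left out. The 12-library count, in fits chosen after seeing the data, was 260 without Tg-Sham replicate 1 and otherwise 29, 30, 32, 34, 35, 35, 39, 40, 49, 52 or 56 without 1 library, and 20 without the hearts holding kidney and atrial transcripts.

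Replicate numbers did not pair libraries (correlation of deviations between same-numbered hearts -0.187 to 0.0927). A replicate block on them left 19 calls, with Inpp4b the 1 higher gene, and changed no other count by over 1.5 times. Between genotypes 0 genes were called, apart from 1 with array weights. Control hearts gave 115 calls, and 1685 with scaling to non-mitochondrial reads, 1054 with array weights, 439 with only the libraries compared, 201 with edgeR, 592 with DESeq2, and 57 to 105 without 1 library. Tg-TAC-MitoQ minus Tg-TAC gave 2821, 5761 with array weights, and 2055 to 4446 without 1 library. Tg-TAC minus Tg-Sham gave 2716, 4926 with array weights, 712 with only those libraries, and 1692 to 4603 without 1 library, where 4603 and 4446 were reached without Tg-TAC replicate 6. The Sirt4 log2 difference was 0.036 with scaling to non-mitochondrial reads and -0.15 to -0.06 without 1 library. No result changed direction while called.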

Other observations

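Gm10503 and Hmga1b were each either present or near absent in a heart, and were chosen after their values were seen. Hmga1b had 108 to 137 normalized counts in all 6 Tg-TAC-MitoQ hearts, 120 and 145 in 2 Tg-TAC hearts with 1.16 to 15.4 in the other 4, and 119 in 1 Tg-Sham heart with 4.25 to 18.2 in the other 5. Within these 18 hearts, Gm10503 was present in the same ones, at 59.5 to 95.5 in Tg-TAC-MitoQ hearts, and was listed at 0 in the others. Hmga1b and Gm10503 were called higher in the 12-library fit (limma adjusted p = 0.0471 and 0.0387), neither in the 10-library fit (0.20 and 0.183), and neither in the 36-library fit (limma adjusted p = 0.385 and 0.317).

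Lars2, the mitochondrial leucyl-tRNA synthetase, had 75580, 55450, 84360, 103300, 51720 and 40940 normalized counts in Tg-TAC-MitoQ hearts, 138800, 176700, 349700, 742600, 236800 and 354600 in Tg-TAC hearts, and 97950, 137600, 273600, 274700, 120100 and 316100 in Tg-Sham hearts. Its difference from Tg-Sham hearts was -1.49 (limma adjusted p = 0.119) and that from Tg-TAC hearts -2.13 (limma adjusted p = 0.000283). Without Tg-Sham replicate 1 the difference from Tg-Sham hearts was called (-1.675, limma adjusted p = 0.0442). In the fit of only the libraries compared, the limma adjusted p was 0.0933. It was 0.0360 there without Tg-Sham replicate 1, and 0.180 without Tg-Sham replicate 2 and Tg-TAC-MitoQ replicate 4. Lars2 was called lower in Con-TAC-MitoQ than in Con-Sham hearts (-1.66, limma adjusted p = 0.0155). Within the Tg-TAC-MitoQ, Tg-TAC and Tg-Sham groups Lars2 was highest in Tg-TAC replicate 4 and lowest in Tg-TAC-MitoQ replicate 6. Rn18s-rs5 was highest and lowest in the same hearts, at 3156000 and 153200. Whether the Lars2 counts measure its messenger RNA alone was not tested.

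Upk3b, a mesothelial gene, was at 0 in 2 of the 6 Tg-TAC-MitoQ hearts and at 63.4 to 125 in the other 4, and at 83.9 in 1 Tg-Sham heart with 0 to 4.76 in the other 5 (log2 difference 2.49, limma adjusted p = 0.745).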
